A study of Homo sapiens with 6 samples.

Results

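The genes described here encode the subunits, activators and assembly factors of the proteasome. They were taken from the deposited count table by symbol, as rows that begin with PSM, a letter A to G and a number. Of 50 symbols of that form, 3 encode the catalytic subunits of the immunoproteasome (PSMB8, PSMB9 and PSMB10) and were left out. A further 2, PSMB11 and PSMA8, had a count of 0 in every library and did not reach the required 10 counts in 2 libraries. The remaining 45 of the 19672 genes in the table form the family described here, and all 45 entered the test. They comprise 7 subunits of the alpha ring, 7 of the beta ring, 6 ATPases, 11 other subunits of the regulatory particle, 5 activators and inhibitors and 7 assembly factors. The last 2, PSMC3IP and PSME3IP1, match the symbol rule but are no proteasome subunits: PSMC3IP is a cofactor of meiotic recombination that was named after a proteasome ATPase it binds, and PSME3IP1 binds the activator PSME3.

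The proteasome degrades proteins that carry ubiquitin chains. Its core particle, 20S, is a barrel of stacked rings: the outer rings are made of alpha subunits, which gate the entry, and the inner rings of beta subunits, a few of which cut the substrate. A regulatory particle, 19S, caps the barrel, receives the ubiquitin chains, removes them and unfolds the protein with a ring of ATPases. Other activators can take its place, and dedicated chaperones guide the assembly of both particles. In mammalian cells the transcription factor NFE2L1 raises the transcription of most of these genes together when proteasome activity falls short.

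RNA was sequenced from SW620, a human colorectal cancer cell line, in 3 stable lines of 2 libraries each. The C3 and C6 lines carried a lentiviral short hairpin RNA against DKC1, the pseudouridine synthase dyskerin. The scramble line carried a non-targeting hairpin in the same kind of vector, and all were kept under puromycin selection with no other treatment. The labels do not pair C3 or C6 with a hairpin, and each group is 1 stable line. Libraries of 1 line are titled biological replicates, with no word on separate cultures, so the p-values measure the spread between these libraries, which may be technical. For C3 replicate 1 the genotype tag reads control although its title names the knockdown, and it was kept in C3.

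Libraries held between 26077966 and 31021000 counts, of which the family took 0.486% and 0.504% in the C3 libraries, 0.489% and 0.465% in the C6 libraries, and 0.457% and 0.432% in the scramble libraries. DKC1 itself stood at 144 and 149 CPM (counts scaled to a common library size) in C3 and at 70.3 and 67.1 CPM in C6, against 320 and 315 CPM in scramble. The library tagged as a control thus had a DKC1 level beside that of the other C3 library. Of 10 markers of the colorectal epithelium, all but CDX1 were detected, and their summed level was 6889 and 7086 CPM in C3 and 9068 and 8961 CPM in C6, against 9138 and 8493 CPM in scramble. Most of that sum is keratin, and single markers moved differently: CDH1 stood at 25.8% of scramble in C3 and 81.1% in C6, VIL1 at 127% in C3 and 47.2% in C6, KRT19 at 83.2% and 169%, and EPCAM at 76.9% and 70.5%. CDX1 was at 0 in all libraries, and so were COL1A2, COL3A1 and DCN of the 6 fibroblast markers, PTPRC, CD3E and MS4A1 of the leukocyte markers and CDH5 of the 4 endothelial markers. The fibroblast sum was 30.3 and 34.9 CPM in C3 and 15.0 and 16.5 CPM in C6, against 24.1 and 23.1 CPM in scramble. CD68, a macrophage marker, was at 10.5 and 10.8 CPM in C3 and 33.0 and 40.0 CPM in C6, against 16.8 and 15.2 CPM in scramble, and the endothelial sum lay between 3.24 and 6.43 CPM in every library. All libraries come from a cell line, so these levels are no count of fibroblasts, macrophages or endothelial cells. In bulk RNA, a change in the share of cells that express a gene and a change per cell cannot be told apart.

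Across the family, transcript levels were modestly higher in both knockdown lines. The summed level of the 45 genes was 4866 and 5067 CPM in the C3 libraries and 4999 and 4752 CPM in the C6 libraries, against 4483 and 4198 CPM in the scramble libraries. That was 114% of the scramble mean in C3 and 112% in C6, and each knockdown library lay above both scramble libraries. In the mean of both lines against scramble, 20 of the 45 genes rose and none fell, with adjusted p under 0.05 by edgeR's quasi-likelihood test and Benjamini-Hochberg adjustment over all 13299 genes tested. The background there was 32.9% of all genes called, 16.6% higher and 16.3% lower. DESeq2 called 17 higher and 0 lower, and at an unadjusted p under 0.05 edgeR had 25 higher and 2 lower and DESeq2 24 higher and 0 lower. The median log2 fold change of the family was 0.15 in the mean of both lines, beside −0.0045 over all genes, and 41 of 45 values were above 0.

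In C3, 18 genes rose and none fell, against a background in which 24.3% of genes were called, 12.4% higher and 11.9% lower. DESeq2 called 14 higher and 0 lower there, and neither tool had a member lower at an unadjusted p under 0.05. In C6, 19 rose and 3 fell, where 46.7% of all genes were called, 23.8% higher and 22.8% lower. The 3 that fell in C6 were PSMD1, PSMD5 and PSME3IP1. The family's median log2 fold change was 0.18 in C3 and 0.12 in C6. Both comparisons use the same scramble libraries, so they are not independent of each other. Called higher in each line were 9 genes, 20% of the family, against 5.44% of all genes: PSMA2, PSMA7, PSMB1, PSMB2, PSMB7, PSMC4, PSMC5, PSMD3 and PSME3. For 18 genes, 40% of the family, all 4 knockdown libraries lay above both scramble libraries, against 15% of all genes tested; for none did they all lie below, against 15.2% of all genes. No member was called lower in each line, against 4.59% of all genes. In neither line was a call made for 15 genes, 33.3% of the family, a share that was not counted over all genes. The 45 genes lie on 17 chromosomes; 24 of them overlap another gene, 21 on the opposite strand, and 12 have pseudogenes that bear their name, so that reads could be shared.

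The call counts depend on single libraries. Scramble replicate 2 held the lower level of the pair for 38 of the 45 genes, with a median log2 difference of 0.09 between scramble replicates 1 and 2. Without scramble replicate 2, 8 genes rose in the mean of both lines, 8 in C3 and 4 in both lines, namely PSMA7, PSMB2, PSMB7 and PSMC5. Without C3 replicate 1 the C3 count was 11 and the count in both lines 5, and without C3 replicate 2 these counts were 7 and 4 and that of the mean 13. In these fits the lone library of a group was assumed to vary like those of the other groups. Calls over all genes in the mean were also fewer with any library left out, so smaller counts there were not particular to the family. Upper-quartile scaling in place of TMM gave 13 higher and 2 lower genes in the mean, 11 and 0 in C3 and 16 and 4 in C6, with medians of 0.10, 0.15 and 0.06. Called in both lines with that scaling were PSMA7, PSMB2, PSMB7, PSMC4 and PSMC5, and with DESeq2 these 5 and PSME3. Over all genes upper-quartile scaling moved the share of calls that were higher to 37.2% in the mean, against 50.5% with TMM. With C3 and C6 merged into 1 group of 4 libraries, so that differences between them add to the spread, PSMA7 was the only member called, and 80 of all genes tested were.

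**Figure D1:**
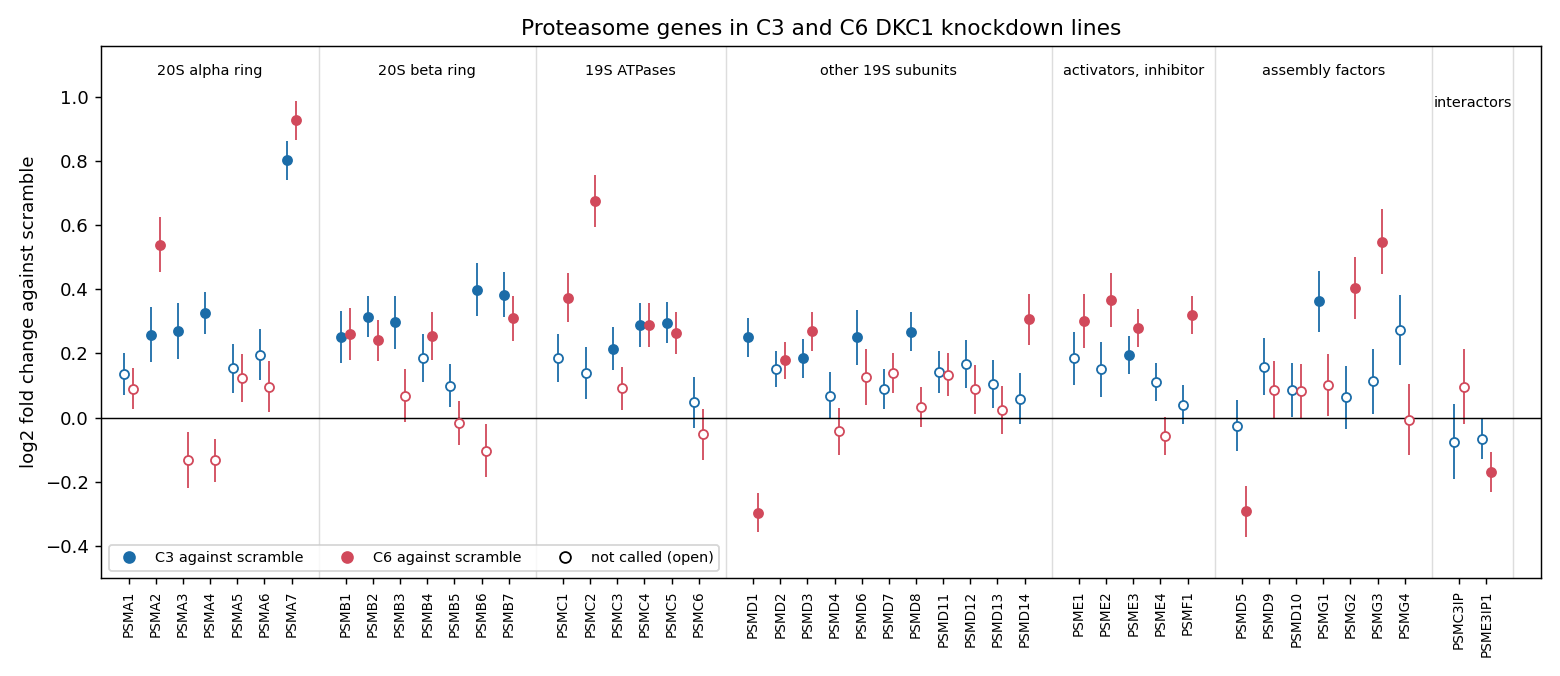
Log2 fold change of each of the 45 genes in C3 (blue) and C6 (red) against scramble, with bars for the standard error of the fit; filled points passed an adjusted p of 0.05 and open points did not. Most points lie between 0 and 0.4, PSMA7 stands highest in both lines, and PSMD1 is above 0 in C3 and below 0 in C6.

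The promoters of the family were searched for a pair of motifs, because NFE2L1 is known to bind antioxidant response elements in proteasome gene promoters. Promoter windows from 250 bases before to 50 bases after the start, taken from RefSeq on GRCh38.p14, matched 39 of the 45 genes; those of PSMA7, PSMB1, PSMB6, PSMB7, PSMD4 and PSMG3 did not match. The core of the element, TGACNNNGC on either strand, stood in 12 of the 39 windows, or 30.8%, against 13.6% of all 27305 promoter windows in the table. The CCAAT box, on either strand, stood in 19 of 39, or 48.7%, against 35.7% of all. These are matches of letters and not measured binding. The stretches below hold the element core in capitals, in genes that rose in both lines (PSMD3), in C3 (PSMB3 and PSMG1), or in C6 (PSMG2 and PSME1), and in a gene that fell in C6 (PSMD5):
PSMD3, chr17:39980750-39980798, plus strand: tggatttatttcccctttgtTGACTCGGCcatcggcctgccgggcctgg
PSMB3, chr17:38752617-38752665, plus strand: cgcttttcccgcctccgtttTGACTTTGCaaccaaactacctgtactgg
PSMG1, chr21:39183606-39183654, minus strand: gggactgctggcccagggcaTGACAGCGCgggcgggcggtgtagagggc
PSMG2, chr18:12658679-12658727, plus strand: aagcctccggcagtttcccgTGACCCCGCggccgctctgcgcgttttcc
PSME1, chr14:24136088-24136136, plus strand: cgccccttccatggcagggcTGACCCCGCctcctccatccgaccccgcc
PSMD5, chr9:120843028-120843076, minus strand: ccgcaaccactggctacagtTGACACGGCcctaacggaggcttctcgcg

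All 6 are written on the strand of the gene. Distances count from the start that the RefSeq promoter table uses, which for PSMG1 and PSMC2 lies 63 and 119 bases inside the annotated gene. For PSMD6, PSMG4, PSMA6 and PSMA1 it lies further inside, by 513, 4543, 13759 and 123276 bases. Their windows were kept in the motif shares above and in the counts of calls below. The core begins 37 bases before the start in PSMD3, 39 in PSMG2, 86 in PSME1, 104 in PSMB3, 134 in PSMD5 and 183 in PSMG1. The CCAAT box, in capitals, is shown for the pair of chromosome 7 genes described further on and for PSMD14, where it begins 84 bases before the start in PSMA2, 31 in PSMC2, whose stretch lies within the annotated gene, and 48 in PSMD14:
PSMA2, chr7:42932234-42932278, minus strand: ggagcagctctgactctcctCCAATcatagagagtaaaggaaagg
PSMC2, chr7:103347592-103347636, plus strand: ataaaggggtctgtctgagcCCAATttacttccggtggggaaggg
PSMD14, chr2:161308357-161308401, plus strand: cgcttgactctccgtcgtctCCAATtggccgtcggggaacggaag

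The calls were spread over genes with and without the element core. In C3, 5 of the 12 genes with it and 9 of the 27 without it rose. In C6, 5 of 12 with it and 10 of 27 without it rose, while 2 with it and 1 without it fell. Of the 19 genes with a CCAAT box, 11 rose in C3 and 7 in C6, and of the 20 without, 3 rose in C3 and 8 in C6. Over all genes tested, 12.4% rose in C3, and 23.8% rose and 22.8% fell in C6. The genes without a matched window are not in these counts. Of them PSMA7, PSMB1, PSMB6 and PSMB7 rose in C3, and PSMD4 and PSMG3 did not. In C6, PSMA7, PSMB1, PSMB7 and PSMG3 rose, and PSMB6 and PSMD4 did not. The counts by motif were not tested.

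The alpha ring summed to 126% of scramble in C3 and 121% in C6, and PSMA7 held much of that: without it the other 6 genes summed to 116% in C3 and 107% in C6, with C6 replicate 2 below scramble replicate 1 (a sum chosen after seeing the data). The ring's median log2 fold change was 0.26 in C3 and 0.10 in C6. Of its 7 genes, 2 rose in the mean of both lines, 4 in C3 and 2 in C6. That made 28.6%, 57.1% and 28.6% called, beside 32.9%, 24.3% and 46.7% of all genes. PSMA7, which encodes an alpha subunit, had 209 and 218 CPM in C3 and 238 and 227 CPM in C6, against 125 and 120 CPM in scramble. The groups were far apart, with the lowest knockdown library well above the higher scramble library. Its log2 fold change was 0.80 ± 0.06 (SE) in C3 (adjusted p = 1.8e-07, edgeR) and 0.93 ± 0.06 in C6 (adjusted p = 1.3e-08), the largest of the family in either line. PSMA2, another alpha subunit, had 82.3 and 83.3 CPM in C3 and 110 and 91.7 CPM in C6, against 73.2 and 65.2 CPM in scramble. All knockdown libraries were above both scramble libraries, and its log2 fold change in C3 was 0.26 ± 0.09 (adjusted p = 0.040, edgeR) and 0.54 ± 0.09 in C6 (adjusted p = 1.3e-04). The C3 call was kept under 7 of 13 alternative settings and lost with upper-quartile scaling, with DESeq2, with the shift of the chromosomal neighbours removed (described further on), and without either C3 library or scramble replicate 2. PSMA2 overlaps MRPL32 on the opposite strand, and the labels do not say how reads of overlapping genes were assigned.

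PSMA3 and PSMA4 rose in C3, with log2 fold changes of 0.27 and 0.33, and stood at −0.13 each in C6, where neither passed the test. The difference between the lines passed for both, at −0.40 ± 0.09 for PSMA3 (adjusted p = 0.0016, edgeR) and −0.46 ± 0.07 for PSMA4 (adjusted p = 3.5e-05), C6 minus C3. PSMA4 had 133 and 145 CPM in C3 and 102 and 100 CPM in C6, against 114 and 108 CPM in scramble. Its libraries thus ordered C3 above scramble above C6. PSMA1, PSMA5 and PSMA6 did not pass in either line, with values between 0.09 and 0.20.

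Per length of transcript, the order within the alpha ring differed between the groups. The lowest gene was PSMA2 in C3, PSMA5 in C6 and PSMA2 in scramble, and PSMA6 stood above PSMA4 in C6 but below it in C3 and scramble. PSMA7 averaged 214 ± 6.20 CPM per kilobase in C3 and 234 ± 8.16 in C6 (SD, n = 2 each), against 123 ± 3.84 in scramble. PSMA1 averaged 137 ± 1.40 CPM per kilobase in C3 and 133 ± 7.92 in C6, against 125 ± 7.16 in scramble. PSMA7 therefore led the ring in both knockdown lines and in scramble stood within the spread of PSMA1. The ratio of the highest to the lowest alpha subunit per kilobase was thus 3.85 in C3 (PSMA7 over PSMA2) and 4.07 in C6 (PSMA7 over PSMA5), against 2.68 in scramble (PSMA1 over PSMA2). Neighbours in the order such as PSMA5 and PSMA2 in scramble, at 52.6 ± 3.59 and 46.6 ± 3.80 CPM per kilobase, were close to the spread between libraries. In the beta ring the same ratio was 2.31 in C3 and 2.55 in C6, against 2.53 in scramble, with PSMB4 highest and PSMB2 lowest in every group.

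**Figure D2:**
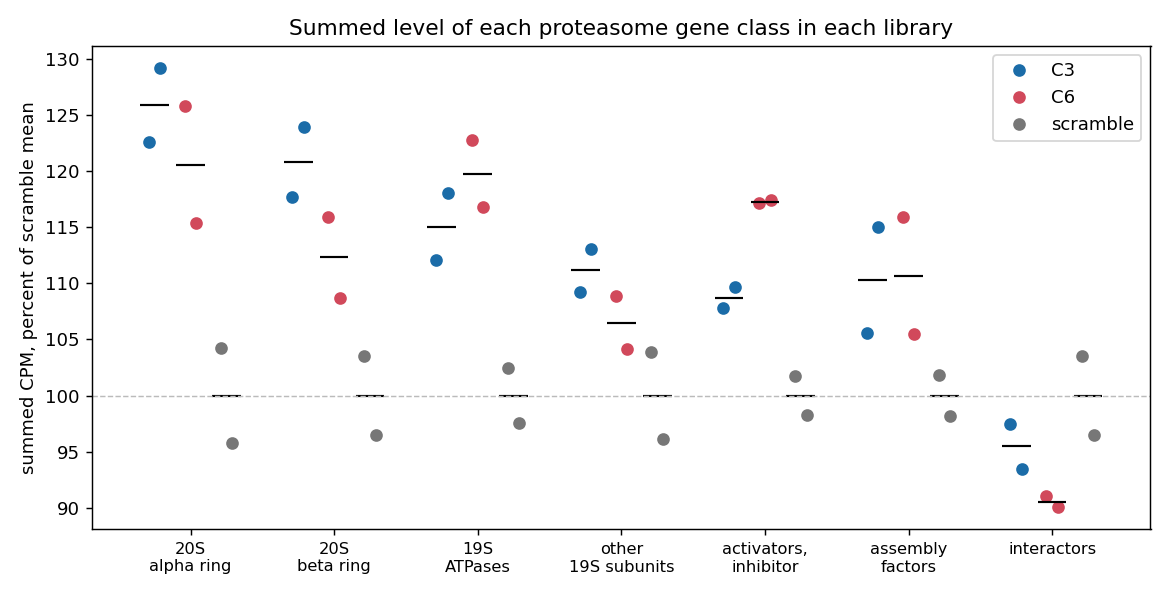
Summed CPM of each class of genes in each library, as a percentage of the scramble mean, for C3 (blue), C6 (red) and scramble (grey), with a line at the mean of each group; the vertical axis starts near 90. In every class but the interactors each knockdown library lies above both scramble libraries, narrowly for the other 19S subunits; the alpha ring has means of 126% in C3 and 121% in C6 with PSMA7, and 116% and 107% without it.

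In the beta ring the summed level was 121% of scramble in C3 and 112% in C6, and 4 of 7 genes rose in the mean, 5 in C3 and 4 in C6. The shares called were 57.1%, 71.4% and 57.1%, beside 32.9%, 24.3% and 46.7% of all genes. PSMB2, a non-catalytic beta subunit, had 145 and 155 CPM in C3 and 146 and 139 CPM in C6, against 118 and 124 CPM in scramble. Its log2 fold change in C3 was 0.32 ± 0.06 (adjusted p = 0.0019, edgeR) and 0.24 ± 0.06 in C6 (adjusted p = 0.0062). PSMB7, the catalytic subunit with trypsin-like activity, had 105 and 110 CPM in C3 and 107 and 97.2 CPM in C6, against 84.2 and 80.5 CPM in scramble. It had the smallest p of the ring in the mean, and its 4 knockdown libraries lay above both scramble libraries. Its log2 fold change in C3 was 0.38 ± 0.07 (adjusted p = 8.1e-04, edgeR) and 0.31 ± 0.07 in C6 (adjusted p = 0.0019). PSMB1, another non-catalytic subunit, had 63.8 and 72.1 CPM in C3 and 72.2 and 64.6 CPM in C6, against 57.5 and 56.7 CPM in scramble. Its log2 fold changes were 0.25 ± 0.08 and 0.26 ± 0.08 in C3 and C6 (adjusted p = 0.034 and 0.016, edgeR), but the calls were kept under 7 of 13 alternatives in C3 and 9 of 13 in C6. Both were lost with upper-quartile scaling and without either scramble library, the C3 call also with DESeq2, with the local shift removed and without C3 replicate 2, and the C6 call without C6 replicate 1. Without 1 library the C3 value ranged over 0.16 to 0.34.

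PSMB6, a catalytic subunit with caspase-like activity, had 78.3 and 83.9 CPM in C3 and 59.1 and 55.4 CPM in C6, against 66.1 and 56.8 CPM in scramble. It rose in C3, by 0.40 ± 0.08 (adjusted p = 0.0021, edgeR), and was at −0.10 ± 0.08 in C6 (adjusted p = 0.32); the lines differed by −0.50 ± 0.08, C6 minus C3 (adjusted p = 1.1e-04). PSMB5, with chymotrypsin-like activity and the main target of proteasome inhibitor drugs, had 90.5 and 93.3 CPM in C3 and 85.1 and 84.4 CPM in C6, against 89.4 and 82.2 CPM in scramble, and passed in no comparison. Its C6 libraries lay between those of scramble. PSMB3 rose in C3 and PSMB4 in C6, with log2 fold changes of 0.30 and 0.25.

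The 6 ATPases of the 19S base summed to 115% of scramble in C3 and 120% in C6. In the mean 4 of them rose, 3 in C3 and 4 in C6, and their median log2 fold change in the mean was 0.28. The shares called were 66.7%, 50% and 66.7%, beside 32.9%, 24.3% and 46.7% of all genes. PSMC4 had 75.4 and 73.6 CPM in C3 and 72.6 and 76.2 CPM in C6, against 61.6 and 60.3 CPM in scramble. Its 4 knockdown libraries were tightly grouped above the scramble pair, with a log2 fold change of 0.29 ± 0.07 in each line (adjusted p = 0.0056 in C3 and 0.0029 in C6, edgeR). PSMC5 had 121 and 132 CPM in C3 and 126 and 122 CPM in C6, against 103 and 104 CPM in scramble. It rose by 0.30 ± 0.06 in C3 (adjusted p = 0.0034, edgeR) and by 0.26 ± 0.06 in C6 (adjusted p = 0.0037); it overlaps FTSJ3 on the opposite strand.

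PSMC2, which overlaps DNAJC2 and SLC26A5 on the opposite strand, had the smallest p of the ATPases in the mean. It had 65.1 and 68.4 CPM in C3 and 105 and 89.0 CPM in C6, against 62.4 and 58.8 CPM in scramble. The C6 libraries stood apart from the others, with a log2 fold change of 0.68 ± 0.08 in C6 (adjusted p = 7.9e-06, edgeR), 0.14 ± 0.08 in C3 (adjusted p = 0.24) and a difference of 0.54 ± 0.08, C6 minus C3 (adjusted p = 5.7e-05). PSMC1 rose in C6, by 0.37, and PSMC3 in C3, by 0.22. For PSMC1 the annotation holds 13 pseudogenes that carry its name, and reads could be shared between such copies. PSMC6 passed in no comparison, with 0.05 in C3 and −0.05 in C6.

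Among the other 11 subunits of the 19S particle, 3 rose in the mean, 4 in C3 and 3 in C6, and 1 fell in C6. Those called were 27.3% in the mean, 36.4% in C3 and 36.4% in C6, set beside 32.9%, 24.3% and 46.7% over all genes. Their summed level was 1637 and 1694 CPM in C3 and 1631 and 1560 CPM in C6, against 1556 and 1441 CPM in scramble. C6 replicate 2 thus lay close to scramble replicate 1, and the group means stood at 111% (C3) and 106% (C6) of the scramble mean. PSMD3, a lid subunit whose promoter stretch is shown above, had 131 and 132 CPM in C3 and 137 and 142 CPM in C6, against 119 and 113 CPM in scramble. Its log2 fold change in C3 was 0.18 ± 0.06 (adjusted p = 0.038, edgeR) and 0.27 ± 0.06 in C6 (adjusted p = 0.0021). The C3 call of PSMD3 was kept under 5 of 13 alternatives and lost with upper-quartile scaling, DESeq2, the replicate block, the local shift removed and any of 4 single libraries left out, whereas its C6 call held under all 13 alternatives tried.

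PSMD1, a large scaffold subunit of the base, was the single gene called in opposite directions, a pattern that 4.93% of all genes showed. It had 193 and 193 CPM in C3 and 135 and 129 CPM in C6, against 168 and 157 CPM in scramble. No group overlapped another. It rose by 0.25 ± 0.06 in C3 (adjusted p = 0.0067, edgeR), a call lost without C3 replicate 1, C3 replicate 2 or scramble replicate 2, and changed by −0.30 ± 0.06 in C6 (adjusted p = 0.0010); the lines differed by −0.55 ± 0.06, C6 minus C3 (adjusted p = 2.9e-06). PSMD14, the deubiquitinase that removes ubiquitin chains from substrates, had 124 and 127 CPM in C3 and 155 and 143 CPM in C6, against 131 and 109 CPM in scramble. It rose in C6, by 0.31 ± 0.08 (adjusted p = 0.0058, edgeR), and stood at 0.06 ± 0.08 in C3. PSMD2, a base scaffold that receives ubiquitin shuttles, rose in C6 by 0.18, and the lid subunits PSMD6 and PSMD8 rose in C3 by 0.25 and 0.27. The PSMD6 call (adjusted p = 0.0495, edgeR) was kept under 5 of 13 alternatives, and that of PSMD8 under 12. The PSMD6 call was lost with RLE and upper-quartile scaling, DESeq2, the replicate block, the local shift removed and some single libraries left out. The ubiquitin receptor PSMD4 and the lid subunits PSMD7, PSMD11, PSMD12 and PSMD13 passed in neither line.

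**Figure D3:**
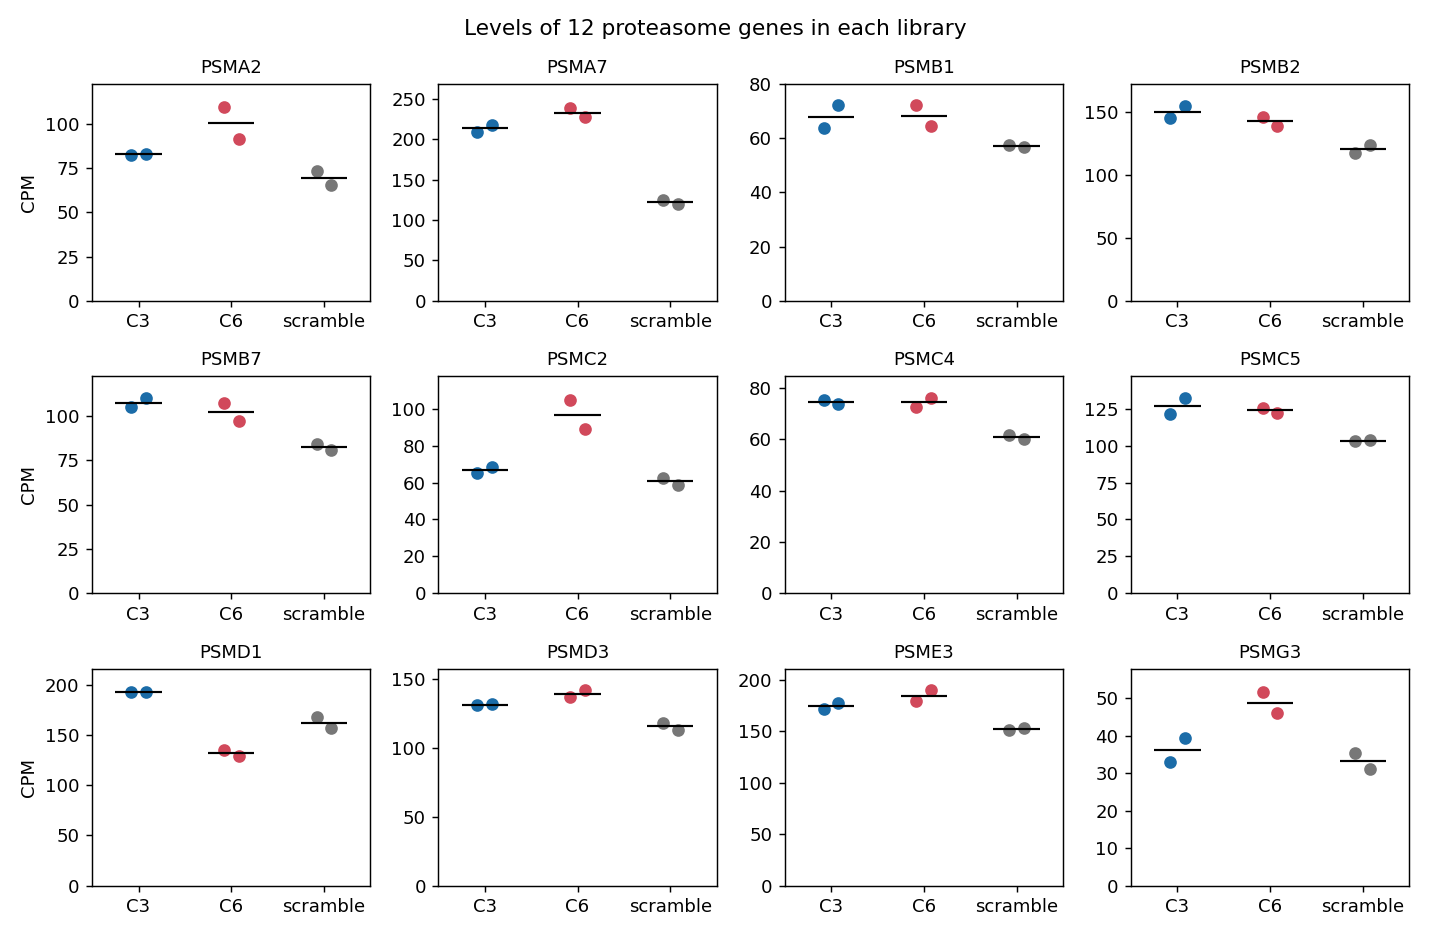
Levels in CPM of the 12 genes called in both lines or leading their class, in each library of C3 (blue), C6 (red) and scramble (grey), with a line at the mean of each group. PSMA7 shows the widest gap, at 209 to 238 CPM in the knockdown libraries and 120 to 125 CPM in scramble, PSMC2 and PSMG3 are raised in C6, and PSMD1 is above scramble in C3 and below it in C6.

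The activators and the inhibitor summed to 109% of scramble in C3 and 117% in C6. Of the 5 genes, 4 rose in the mean, 1 in C3 and 4 in C6. That made 80%, 20% and 80% called, beside 32.9%, 24.3% and 46.7% of all genes. PSME3, the subunit of a nuclear activator that works without ubiquitin, had 172 and 177 CPM in C3 and 180 and 190 CPM in C6, against 152 and 153 CPM in scramble. Both lines lay above scramble without overlap, by a log2 fold change of 0.20 ± 0.06 in C3 (adjusted p = 0.025, edgeR) and 0.28 ± 0.06 in C6 (adjusted p = 0.0013). PSME1 and PSME2 form an activator induced by interferon gamma, and both rose in C6, by 0.30 and 0.37, without passing in C3, where they stood at 0.18 and 0.15. PSMF1, an inhibitor of the core particle in biochemical assays, had 204 and 205 CPM in C3 and 247 and 249 CPM in C6, against 207 and 190 CPM in scramble. It rose in C6 by 0.32 ± 0.06 (adjusted p = 4.5e-04, edgeR), and its C3 libraries lay between those of scramble. PSME4, a large activator linked to histone degradation, passed in neither line, at 0.11 in C3 and −0.06 in C6.

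The 7 assembly factors summed to 110% of scramble in C3 and 111% in C6. Of them 3 rose in the mean, 1 in C3 and 2 in C6, and 1 fell in C6. The shares called were 42.9% in the mean, 14.3% in C3 and 42.9% in C6, beside 32.9%, 24.3% and 46.7% of all genes. PSMG1 and PSMG2 form a dimer that helps to build the alpha ring. PSMG1 rose in C3, by 0.36 ± 0.10 (adjusted p = 0.012, edgeR), and PSMG2 rose in C6, by 0.40 ± 0.10 (adjusted p = 0.0035). They differed between the lines in opposite directions, at −0.26 ± 0.09 for PSMG1 and 0.34 ± 0.10 for PSMG2, C6 minus C3 (adjusted p = 0.033 and 0.0092, edgeR). The PSMG1 difference was kept under 8 of 13 alternatives, DESeq2 not among them, and that of PSMG2 under 10, not with the local shift removed.

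PSMG3 and PSMG4 form the second such dimer. PSMG3 had 32.9 and 39.3 CPM in C3 and 51.6 and 45.9 CPM in C6, against 35.4 and 31.2 CPM in scramble. The C3 libraries overlapped those of scramble and the C6 libraries did not; its log2 fold change was 0.55 ± 0.10 in C6 (adjusted p = 4.5e-04, edgeR) and 0.11 ± 0.10 in C3 (adjusted p = 0.47). PSMG3 overlaps its antisense gene PSMG3-AS1. PSMG4 passed in neither line, at 0.27 ± 0.11 in C3 and −0.01 ± 0.11 in C6, with a difference of −0.28 ± 0.11, C6 minus C3 (adjusted p = 0.044, edgeR). Of the chaperones of the 19S base, PSMD5 fell in C6, with 40.3 and 36.5 CPM in C6 and 45.2 and 47.2 CPM in C3, against 47.7 and 46.4 CPM in scramble. Its log2 fold change in C6 was −0.29 ± 0.08 (adjusted p = 0.0075, edgeR). PSMD9 and PSMD10 passed in no comparison.

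Neither of the interacting proteins rose in any comparison with scramble. Their summed level was 95.5% of scramble in C3 and 90.6% in C6. PSME3IP1 had 141 and 137 CPM in C3 and 130 and 128 CPM in C6, against 151 and 140 CPM in scramble. It fell in C6, by a log2 fold change of −0.17 ± 0.06 (adjusted p = 0.036, edgeR), a call kept under 7 of 13 alternatives. That call was lost with the replicate block and with most single libraries left out. PSMC3IP passed in no comparison.

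The lines also differed directly from each other within the family. In C6 against C3, 7 genes were higher and 10 lower, or 37.8% of the family, while 49.2% of all genes tested were called, 25.1% higher and 24.1% lower. Higher in C6 were PSMA2, PSMC2, PSMD14, PSME2, PSMF1, PSMG2 and PSMG3. Lower in C6 were PSMA3, PSMA4, PSMB3, PSMB6, PSMD1, PSMD5, PSMD8, PSME4, PSMG1 and PSMG4. In no comparison was a call made for 13 of the 45 genes, or 28.9%, and that share was not counted over all genes.

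Several of these genes moved together with the genes that surround them on their chromosome. For each gene the local shift was taken as the running median log2 fold change of 51 neighbouring tested genes in RefSeq order, itself included. The window was cut at chromosome ends and held fewer genes there. In C6 the neighbours of 8 family genes were shifted by more than 0.3 in either direction, and in C3 those of PSMA7 alone. The share of all genes with neighbours beyond 0.3 was not counted, so these counts have no background. PSMA7 (chr20:62136733-62143394, minus strand) had neighbours at 0.46 in C3 and 0.54 in C6. PSMA2 (chr7:42916861-42932174, minus strand), PSMC2 (chr7:103347524-103369395, plus strand) and PSMG3 (chr7:1567332-1570032, minus strand) lie far apart on chromosome 7, and their neighbours stood at 0.49, 0.52 and 0.46 in C6, against 0.06, 0.00 and 0.03 in C3. All 3 were higher in C6 than in C3 by the test of that difference.

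PSMF1 on chromosome 20 had neighbours at 0.33 in C6, and PSMD1 (chr2:231056867-231172827, plus strand) had neighbours at −0.32 in C6. These 6 genes moved in the direction of their neighbours. PSMD14 (chr2:161308425-161411717, plus strand) and PSMD2 (chr3:184299241-184309050, plus strand) rose in C6 although their neighbours stood at −0.49 and −0.33. For the other 37 genes the neighbours lay within 0.3 of 0 in both lines. Of these 37, 15 rose in C3, 12 rose and 2 fell in C6, 7 rose in both lines, and their median log2 fold change in the mean was 0.15. Over all genes tested, whatever their neighbours, 12.4% rose in C3, 23.8% rose and 22.8% fell in C6, and 5.44% rose in both lines.

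**Figure D4:**
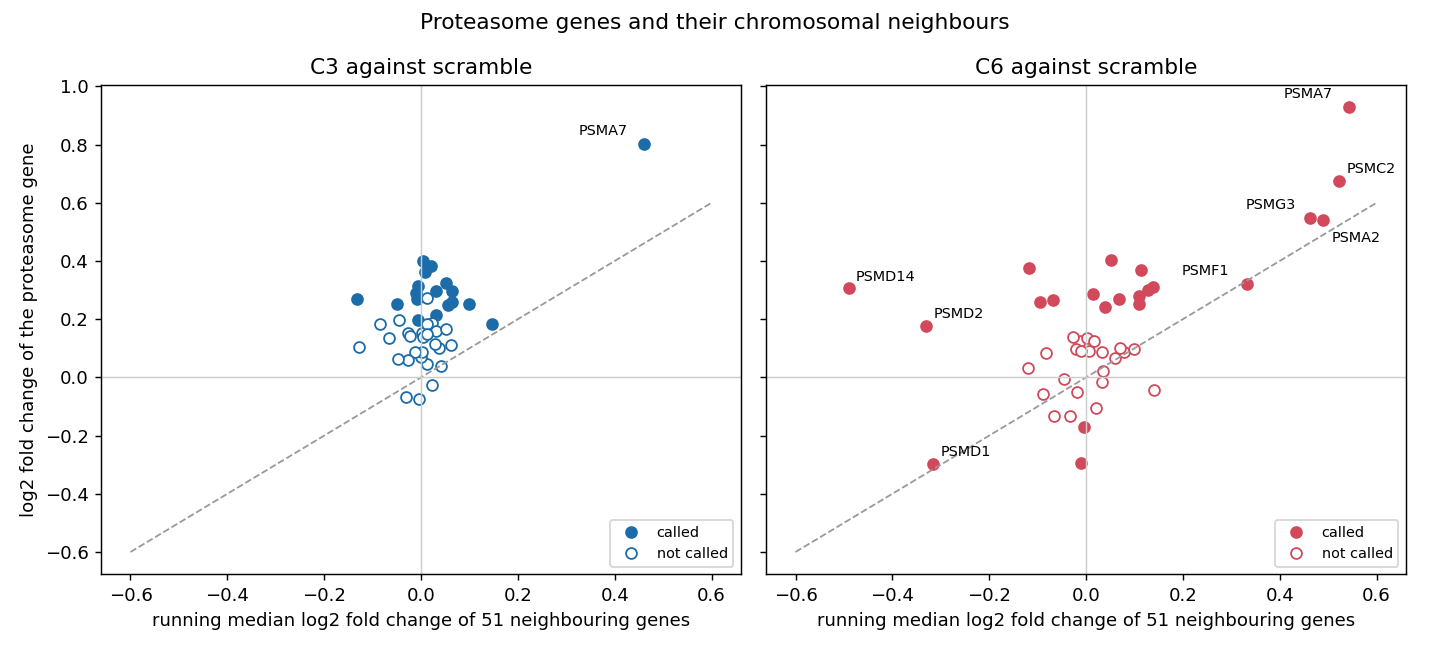
Log2 fold change of each family gene (vertical axis) against the running median log2 fold change of up to 51 genes around it (horizontal axis). C3 is at the left and C6 at the right. Filled points passed an adjusted p of 0.05, the dashed line marks equal values and genes with neighbours beyond 0.3 are named. PSMA7 stands to the right in both panels, PSMC2, PSMA2, PSMG3 and PSMF1 to the right in C6, PSMD1 near the line at the left, and PSMD14 and PSMD2 above the line at the left.

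When the local shift of each line was entered as an offset, 13 genes rose in the mean of both lines, 11 of them among the 20 called before. In C3, 17 rose, 12 of the 18 called before and 5 others, and in C6, 13 rose, 12 of the 19 called before and 1 other. PSMA7 still rose, by 0.34 in C3 and 0.39 in C6. PSMC2, PSMA2 and PSMG3 no longer passed in C6, at 0.15, 0.05 and 0.09, and neither did PSMF1, at −0.01, or PSMD1, at 0.02. PSMD14 and PSMD2 stood at 0.80 and 0.51 in C6. Higher in both lines with the offset were PSMA7, PSMB2, PSMC4, PSMC5, PSME3 and PSMD2, of which 5 were among the 9 above. The median of the family in the mean was 0.14 with the offset. Over all genes the fit with the offset called 3744 in the mean, 50.2% of them higher. Without the offset it was 4382, with 50.5% higher. What moves whole neighbourhoods was not tested.

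Proteasome proteins outside the symbol rule were described in the same way, from a list of 13 partners. In the mean 6 of them rose, 5 in C3 and 8 in C6, and 1 fell in each line. That made 46.2% called in the mean, 46.2% in C3 and 69.2% in C6, beside the 32.9%, 24.3% and 46.7% of all genes. UBE3C, a ubiquitin ligase that works on the proteasome, had 215 and 210 CPM in C3 and 265 and 279 CPM in C6, against 145 and 155 CPM in scramble. It rose by 0.68 ± 0.05 in the mean (adjusted p = 2.0e-07, edgeR); its neighbours stood at 0.46 in C3 and 0.74 in C6, and with the offset it was at 0.08. ADRM1, a ubiquitin receptor of the 19S particle, had 141 and 141 CPM in C3 and 153 and 158 CPM in C6, against 112 and 98.5 CPM in scramble. It lies near PSMA7, rose by 0.49 ± 0.06 (adjusted p = 2.1e-05, edgeR) and was at −0.01 with the offset. SEM1, a small lid subunit, rose by 0.42 ± 0.07; its neighbours stood at 0.00 in C3 and 0.45 in C6, and with the offset it was at 0.20 in the mean and 0.08 in C6, where it did not pass.

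ZFAND2A, a stress-induced zinc finger protein that binds the proteasome, was called in opposite directions. It had 9.62 and 10.3 CPM in C3 and 30.6 and 31.8 CPM in C6, against 13.6 and 12.1 CPM in scramble, with log2 fold changes of −0.37 ± 0.11 in C3 (adjusted p = 0.029, edgeR) and 1.28 ± 0.11 in C6 (adjusted p = 1.6e-07). Its neighbours stood at 0.46 in C6, where it was at 0.82 with the offset.

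Of 14 genes of the NFE2L1 route, 3 rose and 1 fell in the mean, with 2 higher and 2 lower in each line. The 28.6% called in each of these comparisons stands beside 32.9% of all genes in the mean, 24.3% in C3 and 46.7% in C6. NFE2L1 itself had 353 and 333 CPM in C3 and 349 and 376 CPM in C6, against 323 and 350 CPM in scramble, and did not pass the test, at 0.07 ± 0.06 in the mean (adjusted p = 0.38, edgeR). Its groups overlapped. MAFK and MAFF, small MAF proteins that pair with factors of the NFE2L1 family, rose by 0.59 ± 0.07 and 0.36 ± 0.07 in the mean. MAFK had 62.4 and 55.4 CPM in C3 and 112 and 114 CPM in C6, against 55.2 and 53.3 CPM in scramble, with log2 fold changes of 0.12 ± 0.07 in C3 and 1.06 ± 0.07 in C6 and a difference of 0.95 ± 0.07, C6 minus C3 (adjusted p = 6.0e-08, edgeR). The neighbours of MAFK stood at 0.48 in C6, and with the offset it was at 0.34 in the mean and 0.59 in C6, with a difference of 0.50. MAFF stood at 0.07 in C3, where it did not pass, and at 0.66 in C6. MAFG rose by 0.15 ± 0.05 in the mean (adjusted p = 0.049, edgeR). It passed in C3 but not in C6, and not in the mean with the offset. BTRC, a substrate receptor of a ubiquitin ligase that acts on NFE2L1, changed by −0.28 ± 0.07 in the mean and fell. BTRC was at −0.40 in C3 and at −0.17 in C6, where it did not pass.

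Of 14 genes for ubiquitin supply and shuttle receptors, 4 rose in the mean, 3 rose and 1 fell in C3, and 4 rose and 1 fell in C6. The shares called were 28.6%, 28.6% and 35.7%, beside 32.9%, 24.3% and 46.7% of all genes. UBB, a polyubiquitin gene, had 520 and 564 CPM in C3 and 553 and 540 CPM in C6, against 479 and 438 CPM in scramble, and rose by 0.25 ± 0.06 in the mean (adjusted p = 0.0031, edgeR). MIDN, which carries substrates to the proteasome without ubiquitin, rose by 0.17 ± 0.06 in the mean, with 0.37 in C3 and −0.03 in C6, where it did not pass. Of 16 cofactors of the p97 ATPase, 3 rose and 1 fell in the mean, among them UFD1 with 0.22 ± 0.06, NSFL1C with 0.17 ± 0.06, FAF1 with 0.18 ± 0.06 and UBXN4 with −0.14 ± 0.05. That is 25% called, beside 32.9% of all genes. NSFL1C had neighbours at 0.34 in C6 and was at −0.02 with the offset.

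The immunoproteasome subunits, which replace the catalytic beta subunits after interferon, were left out of the family by its rule. PSMB8 had 10.2 and 10.2 CPM in C3 and 21.0 and 21.0 CPM in C6, against 22.7 and 23.1 CPM in scramble. PSMB9 had 1.48 and 1.53 CPM in C3 and 4.25 and 4.46 CPM in C6, against 3.57 and 3.91 CPM in scramble. Both fell in C3, with log2 fold changes of −1.16 ± 0.10 and −1.31 ± 0.24 (adjusted p = 9.9e-07 and 9.6e-04, edgeR), and did not pass in C6. PSMB10 rose in both lines, by 0.47 ± 0.14 in C3 and 0.74 ± 0.14 in C6.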

How the data were processed

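Polyadenylated RNA of SW620 cells was sequenced from a stranded library kit as paired ends, per the labels' protocols. The deposited table holds whole-number read counts per gene, unscaled, in each of 6 libraries. The submitters' processing notes name build hg38, HISAT2 2.1.0, StringTie 2.1.3b, Trimmomatic 0.38 and DESeq2; the assignment of reads to genes and strands is not described in the labels. If StringTie made the counts, they are estimates taken here as tallies.

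Libraries were grouped by title. All 6 entered 1 fit of edgeR 4.0.16 in R 4.3.3 (quasi-likelihood, robust, TMM, filterByExpr) with 3 residual degrees of freedom, and contrasts set C3, C6 and their mean against scramble, and C6 against C3. Benjamini-Hochberg adjustment ran over 13299 genes; a gene is called at an adjusted p under 0.05. CPM used TMM library sizes, and levels per kilobase used the median length of GENCODE v29 transcripts paired with the accessions in the table. Positions and promoters came from RefSeq GRCh38.p14. The local shift was a running median over 51 genes, or fewer where a chromosome end cut the window.

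The members, the other gene lists, the motifs and the rule for values in every library (members called in both lines, and the smallest p of each class in the mean) were chosen with earlier results of these data known. Alternatives were other scalings (RLE, upper quartile), filters, DESeq2 1.42.0, a replicate block, 1 knockdown group, removal of the local shift and leaving out each library. On simulated data only the edgeR fit for the mean of both lines was tested, with equal changes planted in both lines. The limits it had to pass concerned larger changes than those of the family. DESeq2, the other comparisons and the fit with the local shift removed were not tested in that way. A few genes of the lists are not reported here.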

Additional observations from a re-analysis of the deposited data

Results flagged for a closer look

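The test of the difference between the lines, C6 minus C3 in the edgeR fit at an adjusted p under 0.05, passed for 17 family genes. That was 37.8% of the family, a smaller share than the 49.2% of all genes tested. In the core particle the log2 difference was 0.28 ± 0.08 (SE) for PSMA2, −0.40 ± 0.09 for PSMA3, −0.46 ± 0.07 for PSMA4, −0.23 ± 0.08 for PSMB3 and −0.50 ± 0.08 for PSMB6. In the regulatory particle it was 0.54 ± 0.08 for PSMC2, −0.55 ± 0.06 for PSMD1, −0.24 ± 0.06 for PSMD8 and 0.25 ± 0.08 for PSMD14. Among activators and the inhibitor it was 0.22 ± 0.08 for PSME2, −0.17 ± 0.06 for PSME4 and 0.28 ± 0.06 for PSMF1. Among assembly factors it was −0.27 ± 0.08 for PSMD5, −0.26 ± 0.09 for PSMG1, 0.34 ± 0.10 for PSMG2, 0.44 ± 0.10 for PSMG3 and −0.28 ± 0.11 for PSMG4. Of the 17, only PSMA3, PSMA4, PSMB6 and PSMD1 were called under all 13 alternatives. The PSME2 difference was kept under 5 of them, DESeq2 and upper-quartile scaling not included, and the PSME4 difference was lost with the replicate block and 4 others.

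Outside the family the lines differed by −1.10 ± 0.06 for DKC1, 0.36 ± 0.06 for UBE3C, 1.65 ± 0.11 for ZFAND2A, 0.59 ± 0.08 for MAFF, 0.95 ± 0.07 for MAFK and 0.23 ± 0.09 for BTRC. They differed by −0.40 ± 0.07 for MIDN, 0.19 ± 0.07 for NSFL1C, 1.04 ± 0.10 for PSMB8 and 1.53 ± 0.24 for PSMB9. The chromosomal neighbours of PSMA2, PSMC2, PSMG3, PSMF1 and PSMD1 moved with the gene in C6, and so did those of UBE3C, NSFL1C, MAFK and ZFAND2A. With the local shift removed, the difference was 0.08 for UBE3C, −0.11 for NSFL1C, 0.50 for MAFK and 1.21 for ZFAND2A. For the family genes it was −0.14 for PSMA2, 0.02 for PSMC2, 4.9e-05 for PSMG3, −0.01 for PSMF1 and −0.28 for PSMD1. Among these family genes only PSMD1 still passed.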

How the results depend on the processing

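RLE scaling, no low-count filter and a filter of 1 CPM kept every count of calls reported here within 1.5 times. Upper-quartile scaling gave 13 higher and 2 lower members in the mean, 11 higher in C3, 5 in both lines, 11 lower genes of the other lists against 4, and a C6 median of 0.063 against 0.12. With the knockdown libraries as 1 group, 80 genes were called in all against 4382, 1 member higher, and 0 genes of the other lists higher and 0 lower by edgeR (8 and 0 at an unadjusted p under 0.05); DKC1 was at −1.56 (adjusted p = 0.12). With the local shift removed, 13 members were higher in the mean, and PSMD1 in C6 was at 0.019, against −0.30 (adjusted p = 0.84, edgeR). Higher in C6 than in C3 were then 4 members, against 7 before. They were PSMC1, PSMD2, PSMD3 and PSMD14, of which PSMD14 alone was among the 7. DESeq2 gave 2 lower genes of the other lists.

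Same-numbered replicates share only a number: their deviations correlated across genes at −0.16 between C3 and scramble, 0.15 between C6 and scramble and −0.10 between C6 and C3. With the number as a replicate block, 19 members were higher in the mean, 16 in C3, 19 in C6 and 8 in both lines, and 2 genes of the other lists were lower.

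Leaving out each library in turn gave ranges of 2444 to 4041 calls among all genes in the mean, 1946 to 3267 in C3, 4584 to 6006 in C6 and 5155 to 6423 in C6 against C3. Members higher ranged over 8 to 21 in the mean, 7 to 18 in C3, 13 to 19 in C6, 3 to 7 in C6 against C3 and 4 to 9 in both lines; members lower over 1 to 3 in C6 and 4 to 9 in C6 against C3. The C6 falls numbered 1 without C6 replicate 2, where PSMD1 was left, and C6 against C3 gave 3 higher without C3 replicate 1 or C6 replicate 1 and 4 lower without C3 replicate 2. Genes of the other lists ranged over 9 to 13 higher and 1 to 3 lower. The family median ranged over 0.11 to 0.23 in the mean, 0.11 to 0.22 in C3 and 0.092 to 0.19 in C6. The cause of these changes was not tested. With 2 libraries a group, the counts limit precision less than the spread between libraries does, with chi-square per degree of freedom of 6.04 in C3, 8.20 in C6 and 7.53 in scramble.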
